A study of Mus musculus with 11 samples.

Results

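Transcripts of the selectins P-selectin (*Selp*) and E-selectin (*Sele*) and of the leukocyte adhesion receptors VCAM-1 (*Vcam1*) and ICAM-1 (*Icam1*) were followed in a mouse lymphatic endothelial cell line and a mouse skin carcinoma cell line, each grown alone or with the other. The members were taken by gene symbol from the genes tabulated for each line, which gave *Selp*, *Sele*, and *Vcam1* among 191 genes listed for LECs and *Selp* and *Icam1* among 290 genes listed for HaCa4 cells. These 4 genes are part of 458 different genes in all, and the remaining combinations of gene and cell line were not analysed here. Each line was sequenced from single culture, as HaCa4 control (n = 2) or LEC control (n = 3). After 24 h of co-culture the cells were separated by FACS, which gave HaCa4-sorted (n = 3) and, for the endothelial cells, LEC-sorted (n = 3). HaCa4 is a line from a chemically promoted skin squamous carcinoma that carries an oncogenic H-Ras mutation, so both HaCa4 groups share it. The LECs (imLEC in the labels) are dermal cells made conditionally immortal by a temperature-sensitive SV40 large T antigen under an interferon-inducible promoter, which both LEC groups carry. They are expanded with interferon-γ and kept without it at a higher temperature for functional assays. The sources used here do not give which condition the sequenced cultures had, which of the 2 LEC clones of the study each library came from, or whether the control cells also passed through the sorter. Sorting rested on the dye CFSE in the cancer cells and on an antibody to CD31, the product of *Pecam1*, in LECs. Effects of labelling and sorting can therefore not be told apart from those of co-culture in the differences given below.

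Leukocytes leave or enter a vessel in steps. Selectins on activated endothelium bind sialylated and fucosylated glycans and let cells tether and roll, after which the immunoglobulin-family receptors ICAM-1 and VCAM-1 hold the cells firmly through integrins, ICAM-1 through the β2 integrins LFA-1 and Mac-1 and VCAM-1 through α4β1. P-selectin is stored in Weibel-Palade bodies of endothelial cells and moved to the surface on activation, whereas E-selectin is mostly made anew after an inflammatory stimulus. In mice, transcription of all 4 genes is induced by inflammatory cytokines, with NF-κB as the best known factor, and in lymphatic endothelium ICAM-1, VCAM-1, and E-selectin take part in the passage of dendritic cells into lymph vessels.

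All positions are in GRCm38.p6, the build of the authors. *Sele* (chr1:164039614-164058487) and *Selp* (chr1:164115264-164150026, 16 exons in its longest coding transcript in GENCODE M21) lie on the + strand of the same stretch of chromosome 1, 56776 bases apart. *Icam1* (chr9:21015940-21028814, 7 exons) is on the + strand and *Vcam1* (chr3:116110020-116129688, 9 exons) on the - strand. GENCODE M21 places antisense or non-coding genes over the 3′ part of *Selp* (*Gm16587* and *Gm16548*), the 3′ end of *Icam1* (*Gm47079*), and the 5′ end of *Vcam1* (*Gm43109*), and RefSeq places *Gm51665* over *Sele*. The strand setting of the quantification is not given in the sources used here, so reads from these genes cannot be told apart from those of the members.

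The 250 bases before the start used in the RefSeq promoter table are shown for 3 of the 4 members, since the members are textbook targets of the same inflammatory factors. *Vcam1* had no entry in that table. The windows, from RefSeq on GRCm38.p6, are chr1:164115014-164115263 for *Selp*, chr1:164047984-164048233 for *Sele*, and chr9:21015690-21015939 for *Icam1*, each on the + strand and written 5′ to 3′. The *Sele* window ends before chr1:164048234, where GENCODE M21 also starts the gene, and this lies 8620 bases inside the longer RefSeq span given for *Sele*, so the window is not upstream of that span. Capitals mark matches, on either strand, to 4 motifs chosen after the sequences were seen. They are a core of many NF-κB sites (GGNNNTTCC), the AP-1 site (TGANTCA), the TATA box (TATAAA), and the STAT site of interferon-γ responses (TTCNNNGAA).
Selp: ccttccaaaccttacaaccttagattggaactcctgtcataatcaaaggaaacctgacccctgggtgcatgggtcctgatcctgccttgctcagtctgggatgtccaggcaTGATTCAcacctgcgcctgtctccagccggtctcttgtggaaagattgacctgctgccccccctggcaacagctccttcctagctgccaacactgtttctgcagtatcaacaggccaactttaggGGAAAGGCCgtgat
Sele: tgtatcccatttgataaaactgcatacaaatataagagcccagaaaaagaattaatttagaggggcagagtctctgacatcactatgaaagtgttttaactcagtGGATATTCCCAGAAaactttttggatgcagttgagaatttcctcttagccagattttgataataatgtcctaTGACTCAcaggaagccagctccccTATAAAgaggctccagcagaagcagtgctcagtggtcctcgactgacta
Icam1: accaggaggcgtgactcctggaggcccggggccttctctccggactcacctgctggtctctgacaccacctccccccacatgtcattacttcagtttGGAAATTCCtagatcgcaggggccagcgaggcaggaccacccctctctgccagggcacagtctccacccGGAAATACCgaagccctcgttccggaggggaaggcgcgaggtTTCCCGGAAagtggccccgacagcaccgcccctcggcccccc
*Sele* held a match to each of the 4 motifs, and its NF-κB core, from base -145 to base -137 before the start, overlapped with its STAT match. *Icam1* held 2 NF-κB cores, one of which reads as a match on both strands, and a STAT match from base -42 to base -34. *Selp* held an AP-1 match and an NF-κB core that lay on the opposite strand, close to the start. Of 32841 windows of this length before RefSeq starts, 15.7% hold the NF-κB core, 6.75% the AP-1 site, 12.4% the TATA box, and 7.02% the STAT site. The matches describe letters and not bound sites.

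The values are in TPM, a transcript level corrected for transcript length and scaled to the total of the library, so that genes can be compared within a library. The listed genes made up between 1.84% and 3.85% of the total TPM of a library, and the read depth is unknown, so that precision rests on the spread between replicates. The labels do not say that replicates came from separate cultures, so p-values measure the spread between these libraries, which may be technical. Sorted cells were compared with single cultures of the same line by limma on log2(TPM + 1), over all listed genes of that line, with two-sided p-values adjusted by the Benjamini-Hochberg method. A log2 fold change is on that scale, which understates the change of low transcripts, and a gene was said to pass when it moved by 0.5 or more in either direction with an adjusted p no higher than 0.05. In LECs 96.3% of the listed genes passed (184 of 191), 63.9% as higher and 32.5% as lower, and in HaCa4 cells 30% (87 of 290), 15.9% as higher and 14.1% as lower. The libraries of the groups did not overlap for 63.9% of the listed LEC genes as higher and 33% as lower, and for 63.1% and 33.4% of the listed HaCa4 genes. The lists are selections in which nearly every gene separates the groups, so a call of a LEC member is at the background and carries no weight of its own. The LEC list is as long as the set of genes that the paper reports as deregulated in co-cultured LECs. How the HaCa4 genes were chosen is not given in the sources used here. As the HaCa4 list separates the groups to the same degree, HaCa4 p-values also describe preselected genes and are not independent tests. Results therefore turn on the sizes, the single libraries, and the comparison of members. When every library was brought to one median of the listed genes, the log2 fold changes moved by a median of -0.61 in LECs and -0.72 in HaCa4 cells, and the calls turned to 46 higher and 64 lower in LECs and to 50 higher and 95 lower in HaCa4 cells.

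All 3 members listed for LECs were higher in LEC-sorted than in LEC control, P-selectin by 4.28-fold, E-selectin by 3.27-fold, and VCAM-1 by 2.17-fold as ratios of the mean TPM. In each of them the lowest sorted library lay above the highest control, as it did for 63.9% of the listed LEC genes. In either direction the groups did not overlap for 96.9% of them. As RNA from many cells was sequenced, more cells with the transcript and more transcript per cell cannot be told apart.

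*Selp* was at 64.18, 115.12, and 66.23 TPM in LEC control replicates 1 to 3 and at 213.66, 549.90, and 288.45 TPM in LEC-sorted replicates 1 to 3. Controls 1 and 3 were nearly equal and control 2 stood above them, and among the sorted libraries replicate 2 stood well above the others. The means were 81.8 ± 28.8 TPM (SD, n = 3) and 351 ± 177 TPM (SD, n = 3), so the SD reached 50.3% of the mean in LEC-sorted. Its log2 fold change was 2.02 (95% interval 1.14 to 2.91, adjusted p = 0.00389 from limma), which placed it 24th in size among the 122 genes that passed as higher. The change did not rest on the high sorted library, as it was 1.64 without LEC-sorted replicate 2 and still passed.

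*Sele* was at 32.12, 28.80, and 32.16 TPM in single culture and at 100, 131.28, and 72.89 TPM after co-culture. The controls agreed closely, with an SD of 6.22% of the mean, and the sorted libraries were more spread, with replicate 2 highest and replicate 3 lowest. The means were 31.0 ± 1.93 TPM (SD, n = 3) and 101 ± 29.2 TPM (SD, n = 3), and the log2 fold change was 1.64 (95% interval 1.10 to 2.17, adjusted p = 0.0016 from limma). *Vcam1*, the ligand of α4β1 integrin, was at 27.76, 46.21, and 35.42 TPM in single culture and at 78.35, 81.73, and 76.82 TPM after co-culture. Here the spread was the reverse of that of *Sele*, wide in the controls, at 25.4% of the mean, and narrow in the sorted libraries, at 3.18%. The mean was 36.5 ± 9.27 TPM (SD, n = 3) in LEC control and 79.0 ± 2.51 TPM (SD, n = 3) in LEC-sorted, and the log2 fold change was 1.12 (95% interval 0.64 to 1.61, adjusted p = 0.00384 from limma). After scaling of every library to one median, *Selp* and *Sele* still passed, at log2 fold changes of 1.40 and 1.02, whereas *Vcam1* was at 0.51 and did not (adjusted p = 0.0561 from limma).

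**Figure D1:**
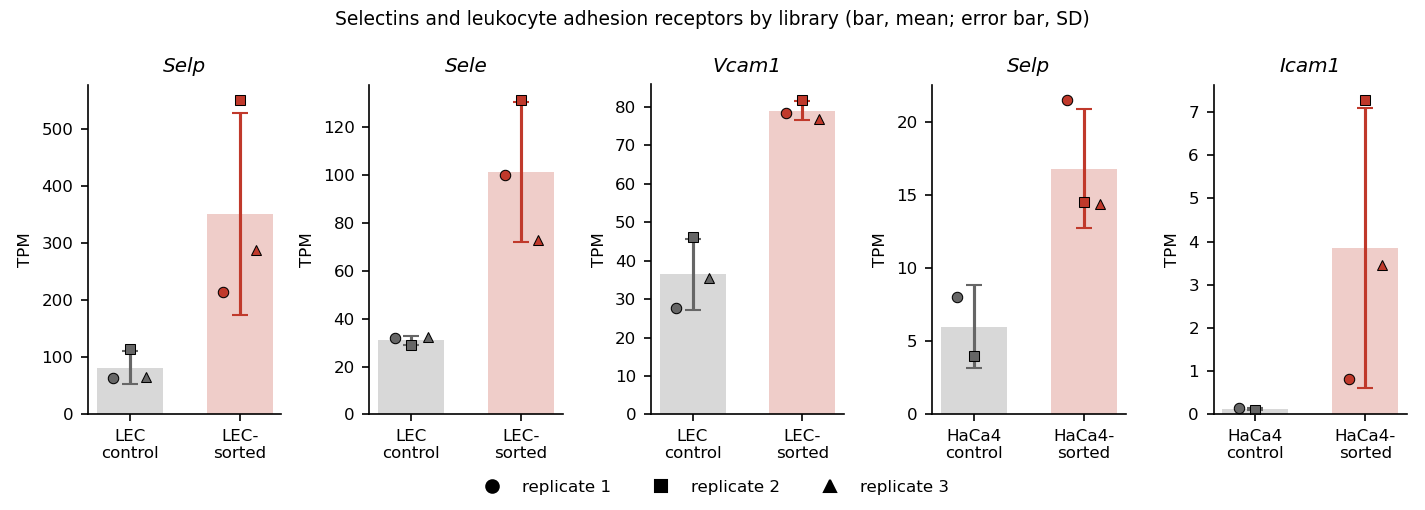
TPM of each member (vertical axis, one scale per panel, from 0) in the control and sorted libraries of LECs (3 left panels) and HaCa4 cells (2 right panels). Points are libraries, their shape marks the replicate, bars are means, and error bars are the SD (n = 3, and n = 2 for HaCa4 control). Sorted libraries lie above the controls in every panel. The order of the sorted replicates is shared by *Sele* and *Vcam1* in LECs, and another by *Selp* in LECs and *Icam1* in HaCa4 cells. *Selp* in HaCa4 cells has an order of its own.

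P-selectin transcripts were the most abundant of the 3 in LECs. *Selp* exceeded *Sele* in 6 of 6 LEC libraries and *Vcam1* in 6 of 6, whereas *Sele* exceeded *Vcam1* in 3 of 6, so the order of the latter pair is within their spread. The ratio of *Selp* to *Sele* TPM was 2, 4, and 2.06 in single culture and 2.14, 4.19, and 3.96 in the sorted libraries, so the groups overlapped. The ratio of *Selp* to *Vcam1* was 2.31, 2.49, and 1.87 in single culture and 2.73, 6.73, and 3.75 in the sorted libraries. That ratio was higher in every sorted library, by 0.90 on the log2 scale. The ratio of *Sele* to *Vcam1* was 1.16, 0.623, and 0.908 against 1.28, 1.61, and 0.949, again with overlap. In exact two-sided permutation tests of the 3 ratios, with 3 libraries against 3, the p-values were 0.2, 0.1, and 0.2, and each was 0.2 after adjustment over the 3 pairs. The smallest p this design can give is 0.1, so unequal changes of the members could not be established, nor could equal ones.

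The libraries also ranked the members differently. In LEC-sorted, replicate 2 was highest for all 3 members, but the lowest library was replicate 1 for *Selp* and replicate 3 for *Sele* and *Vcam1*. Among the 127 listed LEC genes with a higher mean in LEC-sorted, the order of *Selp* was that of 26.8% and the order of *Sele* and *Vcam1* that of 33.1%. Among the controls, replicate 2 was highest for *Selp* and *Vcam1* and lowest for *Sele*. Over the 6 LEC libraries, the listed genes most like *Selp* in log2(TPM + 1) were *Plpp3*, a lipid phosphate phosphatase (Pearson r = 0.990), the acute-phase gene *Saa3* (r = 0.985), and *1110008P14Rik* (r = 0.985). Those most like *Sele* were the ion transporter *Slc12a2* (r = 0.994), the immediate early gene *Ier3* (r = 0.992), and *Csf3*, the granulocyte growth factor (r = 0.991). Those most like *Vcam1* were *Sipa1l2* (r = 0.995), the NF-κB subunit gene *Nfkb1* (r = 0.992), and the receptor *Gpr84* (r = 0.991). Each of these values is mostly the step between the groups, which nearly all listed genes share. The members were less like each other, at r = 0.914 for *Selp* and *Sele*, 0.933 for *Selp* and *Vcam1*, and 0.891 for *Sele* and *Vcam1*, which ranked *Vcam1* 35th and *Sele* 47th in likeness to *Selp*.

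In HaCa4 cells P-selectin transcripts were present without LECs and higher after co-culture. *Selp* was at 8 and 4 TPM in HaCa4 control and at 21.49, 14.52, and 14.36 TPM in HaCa4-sorted replicates 1 to 3. The controls differed widely, with an SD of 47.1% of their mean. Every sorted library was above the higher control, as in 63.1% of the listed HaCa4 genes. HaCa4 control had a mean of 6 ± 2.83 TPM (SD, n = 2), and HaCa4-sorted one of 16.8 ± 4.07 TPM (SD, n = 3), a 2.80-fold rise with a log2 fold change of 1.38 (95% interval 0.53 to 2.24, adjusted p = 0.0386 from limma). Of the listed HaCa4 genes, 15.9% passed as higher. The call was lost without HaCa4 control replicate 1 (log2 fold change 1.81, adjusted p = 0.0673 from limma), without HaCa4 control replicate 2 (0.96, adjusted p = 0.196), and without HaCa4-sorted replicate 3 (1.48, adjusted p = 0.0827). After scaling of every library to one median it was 0.62 and did not pass (adjusted p = 0.262 from limma).

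*Icam1* was nearly absent from HaCa4 control, at 0.14 and 0.10 TPM, and was at 0.82, 7.27, and 3.46 TPM in HaCa4-sorted replicates 1 to 3. The groups did not overlap, as in 96.6% of the listed HaCa4 genes, and the sorted libraries ranged from 6.83 to 60.6 times the control mean. The mean was 0.12 ± 0.03 TPM (SD, n = 2) before and 3.85 ± 3.24 TPM (SD, n = 3) after co-culture. The log2 fold change was 1.86 (95% interval 0.22 to 3.50) and did not pass (adjusted p = 0.0621 from limma). When HaCa4-sorted replicate 1 was left out it was 2.44 and passed (adjusted p = 0.0101 from limma), and with a pseudocount of 0.1 it was 3.72 and passed (adjusted p = 0.0237 from limma). With a pseudocount of 5 it was 0.72 and did not pass (adjusted p = 0.116 from limma).

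Endothelial transcripts were present in the HaCa4-sorted libraries. Of 50 endothelial markers 24 were listed for HaCa4 cells, and the mean of all 24 was higher after co-culture, as it was for 192 of the 290 listed genes. In limma 3 of the 24 passed as higher, where 15.9% of all listed genes did. Their summed level was 47.4 and 42.1 TPM in single culture and 81.8, 430, and 216 TPM in sorted replicates 1 to 3. *Cdh5*, *Emcn*, *Flt4*, *Robo4*, *Erg*, *Icam2*, and *Adgrl4* were listed at 0 in both controls. *Pecam1*, whose product marked LECs in the sort, was at 0.14 and 0.04 TPM in single culture and at 1.29, 24.25, and 9.38 TPM after co-culture. The order of the sorted libraries, replicate 2 above 3 above 1, was that of 23 of the 24 markers and of 53.6% of the 192 listed HaCa4 genes with a higher mean. *Icam1* had this order too, and *Pecam1* was among the 3 listed genes most like it over the 5 libraries, together with the basement membrane gene *Nid1* and *Gm4070* (r rounded to 1 for each). *Selp* had another order, with replicate 1 highest, which 2.08% of those 192 genes had. Genes most like *Selp* included *Aif1l* (r = 0.994) and *Klf10* (r = 0.990), and its r with *Pecam1* was 0.574. In both controls 19 of the 24 markers were under 0.5 TPM. With HaCa4-sorted replicate 2 left out, the log2 fold change was 1.47 for *Selp* (limma adjusted p = 0.0414) and 1.35 for *Icam1* (limma adjusted p = 0.0819). The part of the endothelial transcripts in the results for *Selp* and *Icam1* was not tested. Of 20 leukocyte markers, 0 were listed for either line. As the lists hold selected genes, this does not tell whether leukocyte transcripts were present.

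**Figure D2:**
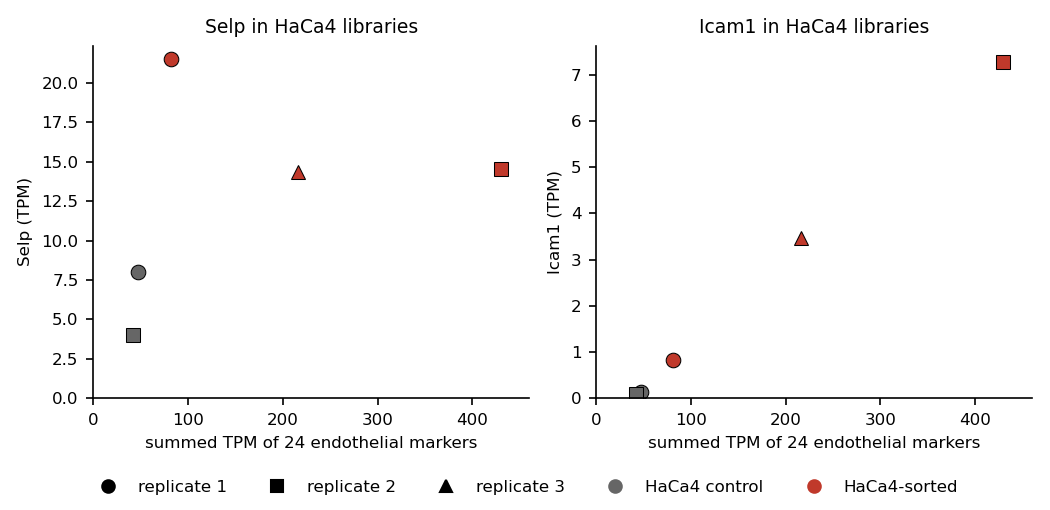
TPM of *Selp* (left) and *Icam1* (right) in the 5 HaCa4 libraries against the summed TPM of the 24 listed endothelial markers in the same library. Points are libraries, grey for HaCa4 control and red for HaCa4-sorted, and their shape marks the replicate. *Icam1* is highest where the endothelial sum is highest, at 430 TPM, whereas *Selp* is highest in the sorted library with the lowest sum, at 81.8 TPM.

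*Selp* is the member listed for both lines, so its level can be set out across the 4 groups, with the reserve that the values come from separate tables and that each library is scaled to its own total. The order was HaCa4 control, HaCa4-sorted, LEC control, and LEC-sorted, and no neighbours in that order overlapped. The lowest LEC control was 2.99 times the highest HaCa4-sorted library. The keratin gene *Krt8*, the one keratinocyte marker of 40 listed for LECs, was listed at 0 in the LEC controls and at 0.19, 2.19, and 0.89 TPM in LEC-sorted, and its part in the LEC results was not tested. The log2 fold change of *Selp* was larger in LECs than in HaCa4 cells by 0.64 (95% interval -0.58 to 1.86), a difference that did not pass (limma interaction, adjusted p = 0.302 over the 23 genes listed for both lines, of which 82.6% passed). The interval leaves room for a smaller as well as a clearly larger change in LECs.

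A list of 66 genes of leukocyte adhesion had 6 genes listed for LECs, among them the 3 members, and 17 for HaCa4 cells, among them *Selp* and *Icam1*. In LECs the 3 that are not members all passed, 2 higher and 1 lower, where 96.3% of all listed genes passed, so this count is at the background. Their median log2 fold change was 1.03, and 1.20 with the members, beside 0.87 over all listed genes. Of these, *Pdpn*, the lymphatic sialoglycoprotein podoplanin, rose 2.44-fold, and its mean level was 144 ± 42.3 TPM (SD, n = 3) in LEC control and 352 ± 101 TPM (SD, n = 3) in LEC-sorted. *Itga7*, a laminin-binding integrin chain, rose at a low level, from 1.68 ± 0.43 TPM to 4.67 ± 2.06 TPM, and no longer passed when LEC control replicate 1 was left out (limma adjusted p = 0.0611). *Ceacam1*, a homophilic receptor of the immunoglobulin family, went the other way, from 16.71, 18.24, and 6.89 TPM in single culture to 2.20, 4.59, and 5.23 TPM (limma adjusted p = 0.0115, log2 fold change -1.53). Scaled to the same median, 3 of the 6 passed, 2 higher and 1 lower, these being *Selp*, *Sele*, and *Ceacam1*.

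In HaCa4 cells 8 of the 17 passed, 3 higher and 5 lower, where 30% of all listed genes passed, 15.9% as higher and 14.1% as lower. Without the members 7 of 15 passed, 2 higher and 5 lower, with a median log2 fold change of 1.03 beside 0.74 over all listed genes. The higher ones were *Selp*, *Ceacam1* (log2 fold change 1.38, adjusted p = 0.0458 from limma), and *Lgals3bp*, which encodes a secreted galectin-binding protein. The lower ones were the adhesion receptor gene *Jam2*, the collagen-binding integrin chain *Itga2*, the membrane chemokine *Cx3cl1*, the integrin ligand *Spp1*, and *Chst2*, a sulphotransferase that modifies glycans. *Jam2* was at 46.70 and 46.06 TPM in single culture and at 23.40, 21.90, and 28.35 TPM in HaCa4-sorted (limma adjusted p = 0.0308, log2 fold change -0.90). *Chst2* was at 48.95 and 40.42 TPM against 25.92, 24.37, and 28.31 TPM (limma adjusted p = 0.0308, log2 fold change -0.74). *Itga4*, the α4 chain that pairs with β1 to bind VCAM-1, was at 0.01 and 0 TPM in single culture and at 0.15, 1.35, and 0.47 TPM in HaCa4-sorted, and did not pass (adjusted p = 0.157 from limma). The endothelial list also holds 5 of the 17, *Icam2*, *Pecam1*, *Esam*, *Lyve1*, and *Cdh5*, and none of these 5 passed in limma, although the groups overlapped only for *Esam*, which was also the only one with an unadjusted p above 0.05. The 8 calls were fragile. Without HaCa4 control replicate 2 or HaCa4-sorted replicate 3 there were 0 calls from limma (6 and 8 genes had an unadjusted p under 0.05), without HaCa4 control replicate 1 there was 1, and without HaCa4-sorted replicate 1 there were 16. Scaled to the same median, 12 passed, 6 higher and 6 lower.

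**Figure D3:**
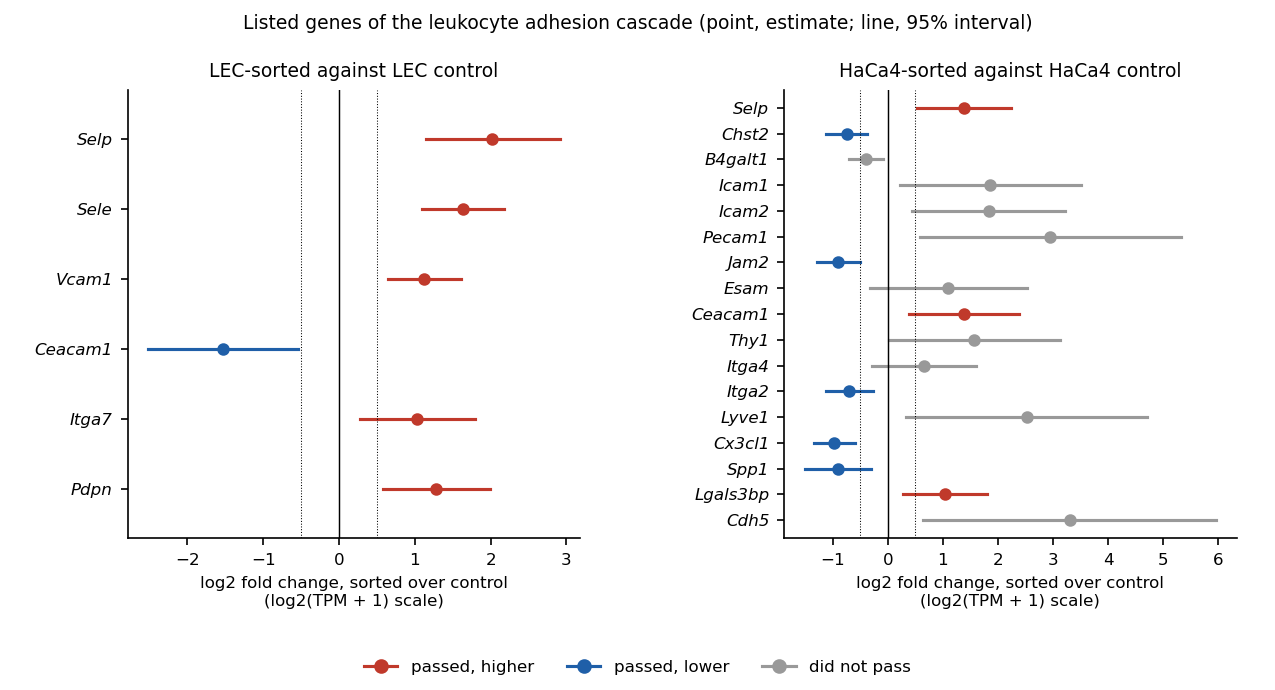
Log2 fold change of sorted over control on the log2(TPM + 1) scale (horizontal axis) for the listed genes of the leukocyte adhesion list, in LECs (left, 6 genes) and HaCa4 cells (right, 17 genes). Points are estimates and lines 95% intervals from limma, dotted lines mark an absolute value of 0.5, and colour marks genes that passed as higher (red) or lower (blue) or did not pass (grey). *Ceacam1* is on opposite sides of 0 in the 2 lines, and the intervals of endothelial genes such as *Cdh5* and *Pecam1* in HaCa4 cells are the widest shown.

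The LEC members rose beside other genes of inflammatory activation. Of 37 genes of NF-κB signalling and its targets, 21 were listed for LECs, of which 18 are not members. These 18 all passed as higher, where 63.9% of all listed genes did, with a median log2 fold change of 1.83. *Selp* lay above that median and *Sele* and *Vcam1* below it. The list was chosen with earlier results of these data known, so the count is a description. The largest rises were those of the growth factor gene *Csf3* and the neutrophil-attracting chemokine *Cxcl1*, with log2 fold changes of 6.97 and 6.21. The subunit gene *Nfkb1* had a log2 fold change of 1.02, close to that of *Vcam1*, and a mean of 75.4 ± 11.5 TPM (SD, n = 3) in LEC control and of 153 ± 6.74 TPM (SD, n = 3) in LEC-sorted, also with its narrower relative spread in the sorted libraries. *Nfkbia*, the inhibitor that NF-κB itself induces, had a log2 fold change of 1.30 and *Nfkbiz*, a nuclear co-factor, one of 2.06. Scaled to the same median, *Nfkb1*, *Nfkb2*, *Ikbke*, *Il1r1*, *Csf1*, *Lif*, and *Vcam1* stayed above 0 but did not pass. In HaCa4 cells 6 of the 37 were listed, and 2 passed as higher, *Selp* and *Cxcl3*, and 2 as lower, *Ikbke* and *Cx3cl1*. Of all listed HaCa4 genes 15.9% passed as higher and 14.1% as lower. With the members left out, 1 of 4 passed as higher and 2 as lower. Of 17 components reported in Weibel-Palade bodies, the storage granules of P-selectin, 4 were listed for LECs, and *Selp*, *Cxcl1*, *Ccl2*, and *Il6* all passed as higher, in a table where 63.9% did. For HaCa4 cells 2 were listed, *Selp*, which passed as higher, in a table where 15.9% did, and *Angpt2*, which did not pass (adjusted p = 0.0543 from limma). *Angpt2* was at 1.02 and 0.91 TPM in single culture and at 2.43, 9.12, and 5.83 TPM in HaCa4-sorted.

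**Figure D4:**
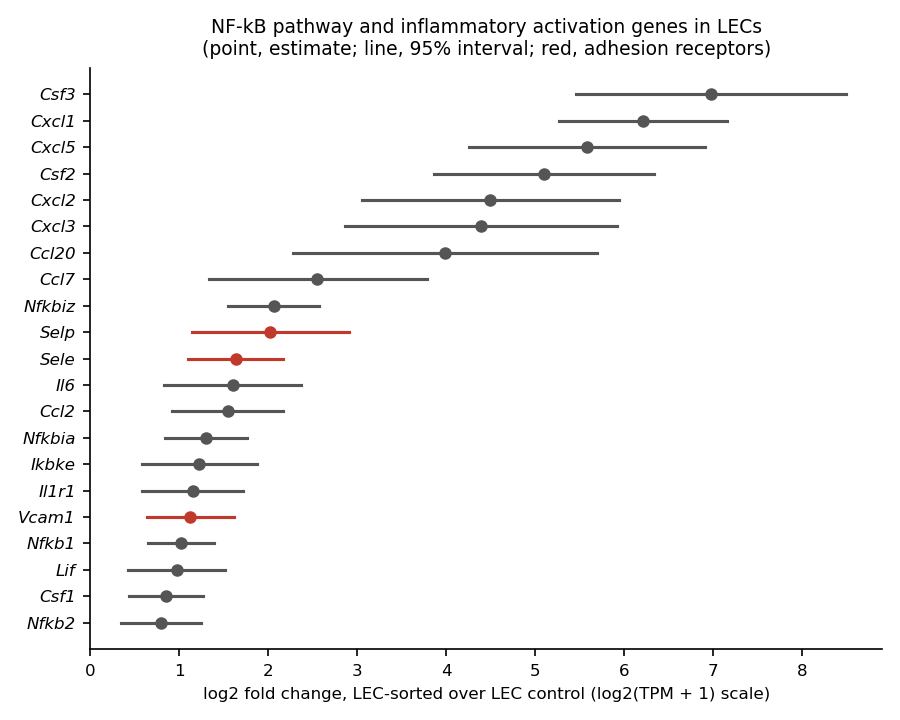
Log2 fold change of LEC-sorted over LEC control on the log2(TPM + 1) scale (horizontal axis) for the 21 listed genes of NF-κB signalling and inflammatory activation, in order of size. Points are estimates and lines 95% intervals from limma, with the adhesion receptors in red. *Selp* (2.02) and *Sele* (1.64) lie in the middle of the order and *Vcam1* (1.12) in its lower part, far below *Csf3* (6.97).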

How the data were processed

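RNA sequencing of 11 libraries was used, grouped by the labels. The authors cleaned the reads in SOAPnuke, used HISAT for alignment on GRCm38.p6 (HISAT2 2.0.4 in the submitters' processing notes), and deposited TPM values per gene and library, rounded to at most 2 decimals, without pooling. The tool that gave TPM is not given in the sources used here, and the study's DESeq2 test needs counts, so limma 3.58.1 in R 4.3.3 was used with a variance trend on log2(TPM + 1), a pseudocount of 1 and no filter. The limma step was tested on simulated data with independent genes and normal noise, which does not address the selection of the listed genes. No 2 replicate libraries shared more than 5 identical values above 0. Ratios of members were tested by exact permutation with scipy 1.17.1 in Python 3.11.15, and plots were made with matplotlib 3.10.9. Positions came from RefSeq by gene ID, which matched 285 of 290 HaCa4 and 191 of 191 LEC genes, and exons and overlapping genes from GENCODE M21. The members and gene lists were chosen with earlier results of these data known. Genes named beside the members were the listed genes of those lists and, per member, the 3 with the highest Pearson r, except for an item that is not reported here. Alternatives were pseudocounts of 0.1 and 5, a mean TPM of at least 1, scaling each library to the same median, no variance trend, a replicate block, and leaving out each library.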

Additional observations from a re-analysis of the deposited data

Results flagged for a closer look

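The change after co-culture differed between LECs and HaCa4 cells, by an interaction term in limma adjusted over the 23 genes listed for both lines, in 6 genes of the lists followed beside the members. As the change in LECs minus that in HaCa4 cells on the log2 scale, the differences were -2.91 for *Ceacam1* (adjusted p = 0.000931), 3.29 for *Cxcl3* (adjusted p = 0.00268), 1.93 for *Ikbke* (adjusted p = 0.00196), -1.50 for *Kdr* (adjusted p = 0.0103), 1.52 for *Krt8* (adjusted p = 0.0103), and 1.67 for *Lif* (adjusted p = 0.00263). *Ceacam1* fell in LECs and rose in HaCa4 cells. *Kdr* passed as lower in LECs (log2 fold change -0.59). In HaCa4 cells *Kdr* was at 0.05 and 0 TPM before and 0.15, 1.87, and 1.16 TPM after co-culture. It did not pass there (limma adjusted p = 0.118). *Krt8* was at 0 in LEC controls and at 0.19, 2.19, and 0.89 TPM in LEC-sorted, and passed as lower in HaCa4 cells. *Lif* did not pass in HaCa4 cells (limma adjusted p = 0.0629). The part of the other line's transcripts in these differences was not tested. Of the 23 genes 82.6% passed the interaction test, and *Selp* was among those that did not.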

How the results depend on the processing

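The rises of *Selp* and *Sele* in LECs passed under all alternatives tried, between log2 fold changes of 1.40 and 2.32 and of 1.02 and 1.85. *Vcam1* passed under all but scaling to the same median, at 0.51, where the listed LEC genes that passed went from 184 to 110 and the adhesion genes from 6 to 3. *Selp* in HaCa4 cells lost its call with a pseudocount of 5 (0.99), with that scaling (0.62), and without the variance trend (1.38), and went from 0.96 to 1.81 with 1 library left out. *Icam1* passed with a pseudocount of 0.1 (3.72) and with scaling (1.56), was at 0.72 with a pseudocount of 5, and went from 1.35 to 2.44 with 1 library left out. The listed HaCa4 genes that passed numbered 177 with a pseudocount of 0.1, 33 with 5, 145 with scaling, 0 without the trend (161 had an unadjusted p under 0.05), and 0 to 194 with 1 library left out. The adhesion genes among them numbered 14, 3, 12, 0 (13 unadjusted), and 0 to 16. The difference in the *Selp* change between the lines turned from 0.64 to -0.05 with scaling. The cause of these shifts was not tested. The medians scaled by come from lists in which most genes are higher after co-culture. With a replicate block the log2 fold changes were 2.02, 1.64, and 1.12 for *Selp*, *Sele*, and *Vcam1* in LECs (adjusted p = 2.71e-05, 0.000301, and 0.00166 from limma), 1.48 for *Selp* (adjusted p = 0.000723) and 1.79 for *Icam1* in HaCa4 cells (adjusted p = 0.0705), and 0.54 for the difference of *Selp*. The block moved the listed genes that passed to 182 in LECs and 115 in HaCa4 cells, and changed no call of a member. The numbers were not shown to pair the libraries, as deviations of same-numbered LEC libraries correlated at 0.23, 0.07, and -0.02, and HaCa4 offers 2 pairs (0.23 and 0.28). Correlations of the 2 HaCa4 controls are not separate evidence, since these controls deviate from their mean by equal and opposite amounts. HaCa4 control replicate 2 has another number, 3, in its deposited name than in its label, so the HaCa4 block values rest on an uncertain pairing, and its correlation with HaCa4-sorted replicate 3 was -0.09. Within replicate numbers each exact ratio test gave an adjusted p of 0.25. With 3 pairs of libraries this is the smallest p that test can give, so it cannot decide whether the members changed unequally.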
